A study of Arabidopsis thaliana with 54 samples.

Results

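PP2-A13 (AT3G61060) and PEX11E (AT3G61070) are Arabidopsis genes that face each other on chromosome 3 and overlap at their 3′ ends. They are 2 of the 32833 gene identifiers in the count table of a photoperiod time course, and were chosen by their overlap on opposite strands and selected on their counts in these same libraries, which were already known (0 counts of PP2-A13 in some libraries, beside a steady ratio to PEX11E in the rest). Their levels are therefore given as a description, with no test. The table covers 54 libraries of whole Columbia 0 seedlings that carry no transgene or mutation. All seedlings were grown on plates for 10 days in equinox (EQ, 12 h light and 12 h dark) and then kept for 2 days in short day (SD, 8 h light and 16 h dark), EQ or long day (LD, 16 h light and 8 h dark). Each of the 18 groups of photoperiod and time point, from zeitgeber time 0 (ZT00, dawn) to ZT20 in steps of 4 h, has 3 replicates labelled A, B and C, each a pool of seedlings from a plate. The ZT00 samples were harvested in the dark, and the SD ZT08, EQ ZT12 and LD ZT16 samples in the light, so 9 groups are dark and 9 are light.

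PP2-A13 encodes an F-box protein with a phloem protein 2 (lectin) domain. F-box proteins select targets for ubiquitination by SCF complexes. PEX11E encodes a peroxin of the PEX11 family, membrane proteins that elongate peroxisomes before they divide. Peroxisomes of a seedling carry out the beta-oxidation of fatty acids and part of photorespiration.

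In the TAIR10.1 annotation of RefSeq, PP2-A13 lies at chr3:22602816-22604582 on the plus strand, with 3 exons and 2 annotated transcripts. PEX11E lies at chr3:22604094-22606878 on the minus strand, with 3 annotated transcripts, of which the one that reaches into PP2-A13 has 8 exons. The stretch they share, chr3:22604094-22604582, is 489 bp long and exonic in both genes. In PP2-A13 it holds the last 243 bp of coding sequence and 246 bp of the 3′ UTR, and in PEX11E it holds 3′ UTR with 0 bp of coding sequence. It makes up 33.2% of the 1472 bp of PP2-A13 exons and 26.7% of the 1830 bp of PEX11E exons. Of the 3 PEX11E transcripts, 1 reaches into PP2-A13, while the other two end 19 bp beyond it. The sources state a stranded alignment setting, but the table gives no reads, so reads of a gene and of its antisense partner cannot be told apart here.

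**Figure D1:**
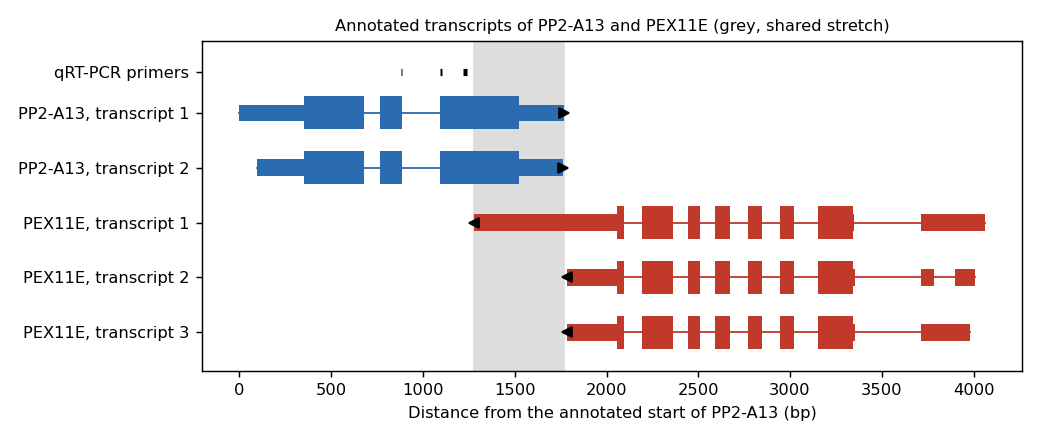
Annotated transcripts of PP2-A13 (blue) and PEX11E (red) by distance in bp from the annotated start of PP2-A13. Tall boxes are coding exons, low boxes untranslated exons, lines introns, arrowheads the direction of transcription, grey the shared 489 bp, and black marks the primers used for PP2-A13, which end 38 bp before it.

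The study also measured PP2-A13 by qRT-PCR, and its primers are shown because they place that assay relative to the overlap. Capitals mark the bases of the forward primer before the exon junction that it spans. Both match PP2-A13 transcripts, and the reverse primer lies on the minus strand at chr3:22604036-22604055.
PP2-A13 forward: TGAATCCAGgttccagtcagc
PP2-A13 reverse: tgcagatcctccttccaagc
The product of 155 bp has 0 bp in the shared stretch, so it reads a part of PP2-A13 that PEX11E transcripts do not cover. The qRT-PCR values were not analysed here.

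Sequences upstream of both genes are shown because their counts moved together. Capitals mark matches, on either strand, to CACGTG (the G-box) or ACGT (the core of bZIP sites, which also lies inside each G-box); AGCCGCC (the GCC-box) and AATATCT (the core of the evening element) were searched too. For PP2-A13 the window is the 250 bp before the annotated start, chr3:22602566-22602815 on the plus strand. For PEX11E it is the 220 bp up to the next gene, chr3:22606879-22607098 on the minus strand.
PP2-A13: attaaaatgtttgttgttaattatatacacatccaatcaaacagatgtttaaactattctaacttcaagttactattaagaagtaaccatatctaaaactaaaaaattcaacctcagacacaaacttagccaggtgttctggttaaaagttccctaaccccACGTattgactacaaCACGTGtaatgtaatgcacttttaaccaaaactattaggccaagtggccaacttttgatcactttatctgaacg
PEX11E: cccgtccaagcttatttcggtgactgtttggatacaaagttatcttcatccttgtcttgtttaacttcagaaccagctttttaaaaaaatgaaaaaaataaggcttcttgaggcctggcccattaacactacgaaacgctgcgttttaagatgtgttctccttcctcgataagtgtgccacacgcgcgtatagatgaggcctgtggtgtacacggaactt
The PP2-A13 window held 1 G-box, which starts 74 bp before the annotated start, and 2 ACGT cores, at 89 bp and inside the G-box at 73 bp. Of 27443 promoter windows of the same length, 6.49% held a G-box and 44.1% an ACGT core. The PEX11E window held neither, and neither window held the GCC-box or AATATCT. These matches are letters in a window and were not tested as binding sites.

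PEX11E had counts in every library, from 497 to 12858 with a mean of 3687. For PP2-A13, 17 of the 54 libraries were at 0, and the other 37 held between 242 and 3606, with no library in between. Per kb of exon, the mean level over all libraries was 620.5 CPM for PEX11E and 178 CPM for PP2-A13. CPM are counts scaled to a common library total, here after TMM, a normalization that corrects those totals for composition. Library totals ranged from 2430049 to 4124570 counts, and a count of 0 allows a level of up to 0.690 to 1.16 CPM (3 counts), which covers counting error only. The libraries with no PP2-A13 counts had totals from 2763127 to 4124570, and the others from 2430049 to 4114579.

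PEX11E was higher in the dark than in the light of each photoperiod. Over the 9 dark groups its mean level ran from 917 to 3068 CPM, and over the 9 light groups from 193 to 955 CPM. Single libraries overlapped: 6 of the 27 dark libraries lay below the highest light library (1079 CPM), and 8 of the 27 light libraries lay above the lowest dark library (675 CPM). In a bulk sample, fewer cells that express a gene and less RNA per cell cannot be told apart.

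In SD, PEX11E peaked at the first harvest after dusk. At ZT12 its level was 2965, 2349 and 3889 CPM in replicates A, B and C, with a mean of 3068 ± 775 (SD, n = 3), the highest of the 18 groups. At ZT08, the last harvest in the light, it was 458, 657 and 800.5 CPM, with a mean of 639 ± 172 (SD, n = 3). The ranges did not overlap, and the ratio of means was 4.80 (log2 2.26, SE 0.31), in a comparison where the ranges of 24.4% of 14115 genes did not overlap in either direction. The level then fell back within the night, to 922, 675 and 1426 CPM at ZT16 and to 1068, 898 and 786 CPM at ZT20. Each ZT16 library lay below each ZT12 library, which held in either direction for 14% of genes. By the end of the night, at ZT00, it stood at 2099, 1594 and 2354 CPM, above each ZT20 library (background 16.8% of genes). SD thus had a high group on each side of the night, with lower groups between them, and the ZT04 libraries in the light were at 631, 863 and 677 CPM.

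In EQ, the level was higher later in the night. PEX11E was at 151, 251 and 284 CPM at ZT12, the last harvest in the light, and at 1045, 1423 and 1388 CPM at ZT16. These ranges did not overlap, with a ratio of means of 5.62 (log2 2.49, SE 0.29) and a background of 23.3% of genes. ZT20 was at 1328, 1357 and 1572 CPM, which overlapped ZT16, and ZT00 at 2581, 3051 and 1793 CPM lay above each ZT20 library (background 9.66%). After dawn the level was low again, at 494, 195 and 422 CPM at ZT04, each below each ZT00 library (background 22.6%). ZT08 was at 464, 503 and 807 CPM, a range that overlapped ZT04 and lay above ZT12 (background 14.8% between ZT08 and ZT12).

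In LD, the lowest levels came at the end of the long light period. PEX11E was at 238, 178 and 163 CPM at ZT16, and its mean of 193 ± 39.9 (SD, n = 3) was the lowest of the 18 groups. At ZT20, after 4 h of dark, it was at 1219, 1094 and 1337 CPM, with a ratio of means to ZT16 of 6.30 (log2 2.66, SE 0.19) and no overlap (background 25.1%). At ZT00 it was at 1505, 3589 and 2335 CPM, each above each ZT20 library (background 10.2%) and with the widest spread of the 18 groups (SD 1049 CPM). In the light it stood at 537, 423 and 845 CPM at ZT04 and 930.0, 857 and 1079 CPM at ZT08, then at 181, 379 and 207 CPM at ZT12. ZT08 lay above both ZT04 (background 17.3%) and ZT12 (background 16.9%), so LD also had a midday group that stood above its neighbours.

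**Figure D2:**
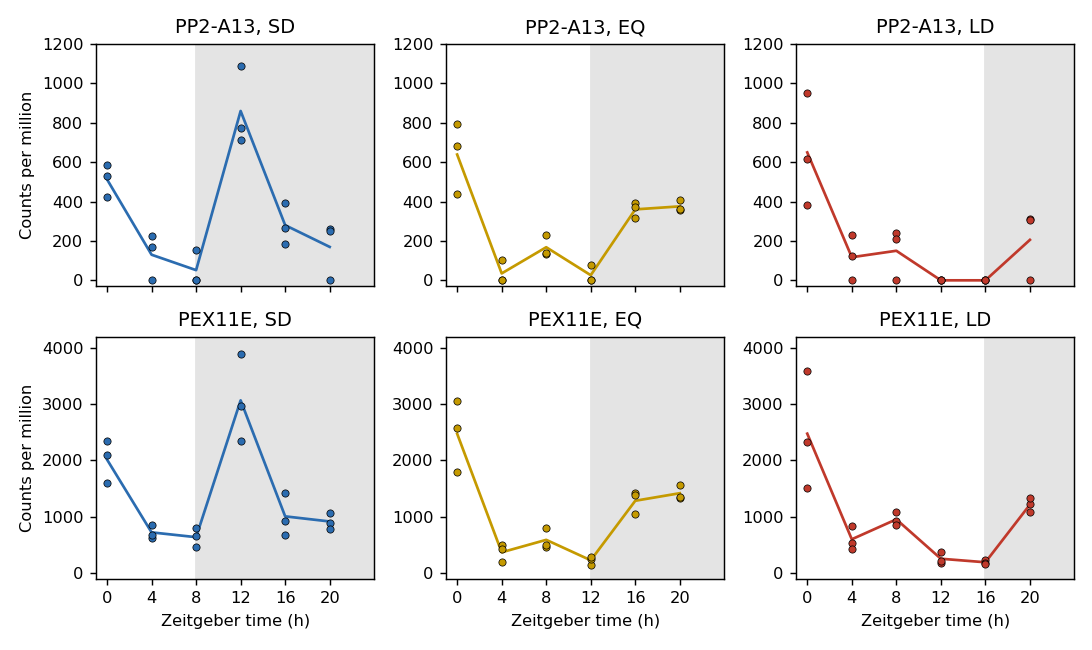
Level of PP2-A13 (top) and PEX11E (bottom) in CPM by zeitgeber time in SD, EQ and LD. Points are single libraries (n = 3), lines join group means and grey marks the dark, with ZT00 also harvested in the dark. The highest mean of both genes is in SD at ZT12.

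The 6 groups with the highest means of PP2-A13 were those of PEX11E, in the same order, and below them the orders differed. In SD its counts were 1548, 1623 and 1848 at ZT00, 0, 670 and 435 at ZT04, and 0, 511 and 0 at ZT08. They were 2937, 2279 and 3606 at ZT12, 961, 751 and 1320 at ZT16, and 984, 795 and 0 at ZT20. The mean level at ZT12 was 859.7 ± 202 CPM (SD, n = 3). Each ZT12 library lay above each ZT08 library, as each did for PEX11E (background 24.4% of genes).

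In EQ the counts of PP2-A13 were 2033, 2499 and 1418 at ZT00, 0, 0 and 322 at ZT04, and 381, 489 and 644 at ZT08. At ZT12 they were 0, 0 and 242, at ZT16 928, 1366 and 1139, and at ZT20 1232, 1139 and 1414. Each ZT16 library lay above each ZT12 library (background 23.3% of genes). The ZT00 mean of 639 ± 184 CPM (SD, n = 3) was the highest of the EQ groups. In LD the counts were 1445, 2453 and 2029 at ZT00, 391, 0 and 664 at ZT04, 662, 683 and 0 at ZT08, and 1020, 979 and 0 at ZT20. The 3 LD libraries at ZT12 and the 3 at ZT16 had 0 counts, so no fold is given against them.

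Libraries at 0 fell mostly on light groups, and overlapped the other libraries in their PEX11E counts. Of the 17 libraries, 15 were harvested in the light and 2 in the dark. SD had 4, EQ 4 and LD 9, and replicates A, B and C had 6, 5 and 6. By group, 8 of the 18 had counts in all 3 libraries, 5 had 1 library at 0, 3 had 2 and 2 had all 3. In the libraries at 0, PEX11E had 497 to 4469 counts (median 1384), and where PP2-A13 was counted it had 880 to 12858 (median 4025). These ranges overlap widely: 11 of the 17 libraries at 0 had more PEX11E counts than the lowest library with PP2-A13 counts. The clearest case is LD at ZT20, where replicate C had 4469 PEX11E counts and 0 of PP2-A13, while replicate A had 3998 and 1020.

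Where PP2-A13 was counted, the ratio of its counts to those of PEX11E varied little. Over the 37 libraries the ratio of PP2-A13 to PEX11E counts ran from 22.8% to 30.4%, with a median of 26.5% and a coefficient of variation (CV) of 6.40%, while PP2-A13 counts themselves varied 14.9-fold. Counting error by itself would give a CV of 3.91%. The ratio differed little between light (22.8% to 28.6%, 12 libraries) and dark (24.3% to 30.4%, 25 libraries), with medians of 25.9% and 26.5%. The median by photoperiod was 26.3% for SD, 26.8% for EQ and 26.0% for LD. The shared stretch is 26.7% of the PEX11E exons, and whether reads of one gene were counted for the other was not tested. At the median ratio, the PEX11E counts of the 17 libraries at 0 would go with 132 to 1184 PP2-A13 counts, well above the 3 counts that a 0 allows.

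**Figure D3:**
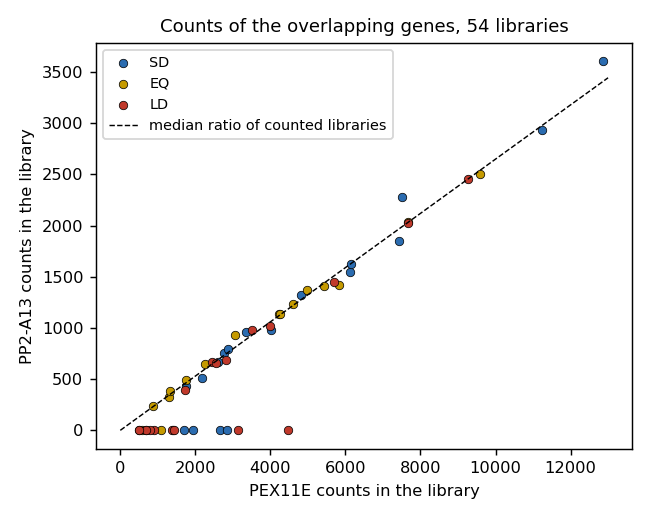
PP2-A13 counts (vertical) against PEX11E counts (horizontal) in the 54 libraries, coloured by photoperiod, with the median ratio of 26.5% as a dashed line. The 37 libraries with PP2-A13 counts lie along the line and the other 17 lie at 0.

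The same ratio was taken for all annotated pairs of genes that overlap on opposite strands. Of 5033 such pairs in the table, 1350 had a mean of at least 50 counts in both genes and counts of both in at least 10 libraries. Their CV had a median of 25% and quartiles of 14.7% and 42.3%. Of these pairs, 62 (4.59%) had a lower CV than PP2-A13 and PEX11E. The CV covers libraries with counts of both genes, and so leaves out the 17 libraries with no PP2-A13 counts. PP2-A13 and PEX11E were selected with their steady ratio known, so nothing is read from their place among the pairs. In 55 pairs (4.07%), PP2-A13 and PEX11E among them, the median ratio lay within 10% of the share of the higher gene's exons that is shared. When at least 200 counts were asked of both genes, 9.24% of pairs had a lower CV.

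**Figure D4:**
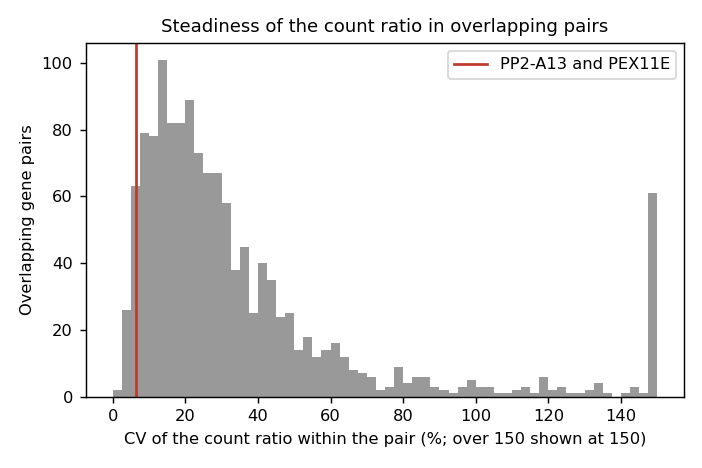
Number of overlapping gene pairs (vertical) by the CV of their count ratio in % (horizontal, values over 150 drawn at 150), over 1350 pairs. The red line marks PP2-A13 and PEX11E, selected with their steady ratio known, at 6.40%, to the left of the lower quartile of 14.7%.

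Counts that jump from 0 to over 200 were not particular to PP2-A13. Of 4006 genes with a mean of at least 50 counts, 878 had 0 counts in at least 1 library. By a rule set after the PP2-A13 counts were seen, 94 of the 4006 had 0 counts in at least 10 libraries and at least 200 counts in each of the others. All 94, PP2-A13 included, are overlapped by an annotated gene on the opposite strand, as are 77.3% of the 4006.

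Between photoperiods at the same time point, PEX11E differed most where 1 of them was in the dark. Its ranges did not overlap in 9 of the 18 comparisons, and over the 18 comparisons 9.83% to 42.1% of genes did not overlap. In SD at ZT12 the mean was 12.0 times that of LD (log2 3.58, SE 0.41, background 38.6%) and 13.4 times that of EQ (log2 3.75, SE 0.33, background 42.1%). At ZT16 the mean was 5.22 times that of LD in SD (log2 2.38, SE 0.36, background 39.3%) and 6.66 times in EQ (log2 2.73, SE 0.22, background 37.2%). These 4 comparisons set a dark group against a light group, and their backgrounds were the highest of the 18. The other 5 were smaller. At ZT08 LD was the highest, with SD at log2 -0.58 (SE 0.25, background 20.9%) and EQ at log2 -0.69 (SE 0.28, background 17.6%) relative to it. At ZT20 the SD mean was lower than in LD (log2 -0.41, SE 0.15, background 26.3%) and EQ (log2 -0.63, SE 0.15, background 19.4%). At ZT04 SD was above EQ (log2 0.97, SE 0.38, background 17.8%). At ZT00 the ranges of the 3 photoperiods overlapped (backgrounds 19.9% for SD against LD, 15% for SD against EQ and 12.9% for EQ against LD). At ZT20 EQ and LD overlapped for PEX11E but not for PP2-A13 (background 23.0%), which had 1 LD library at 0. PP2-A13 had no overlap in 6 of the 18 comparisons, and it passed the filter on low counts in 17, all but EQ against LD at ZT12.

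In order of mean level, 16 of the 17 neighbouring pairs of PEX11E groups overlapped. From SD ZT12 (3068 CPM) the order ran through LD ZT00 (2476), EQ ZT00 (2475) and SD ZT00 (2016), and these neighbours overlapped. The ranges of SD ZT00 and of the next group, EQ ZT20 (1419 CPM), did not overlap, and as the order itself chose this pair nothing is read from it. After EQ ZT20 came EQ ZT16 (1285), LD ZT20 (1217), SD ZT16 (1008), LD ZT08 (955) and SD ZT20 (917), then SD ZT04 (724), SD ZT08 (639), LD ZT04 (601) and EQ ZT08 (591). The lowest were EQ ZT04 (370.3), LD ZT12 (256), EQ ZT12 (229) and LD ZT16 (193).

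Counted from lights off, the night courses differed. After 4 h of dark the SD mean of PEX11E was 2.39 times that of EQ (log2 1.26, SE 0.25) and 2.52 times that of LD (log2 1.33, SE 0.23), and each SD library lay above each EQ and LD library (backgrounds 16.1% and 25.5%). EQ and LD overlapped there. In the last light the SD mean was also the higher one, 2.79 times that of EQ (log2 1.48, SE 0.34, background 13.5%) and 3.31 times that of LD (log2 1.73, SE 0.28, background 17.8%). These harvests differ in zeitgeber time and in the length of the preceding light, so the effect of each cannot be told apart. PP2-A13 after 4 h of dark was 2.39 times as high in SD as in EQ (log2 1.26, SE 0.22), again with no overlap.

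**Figure D5:**
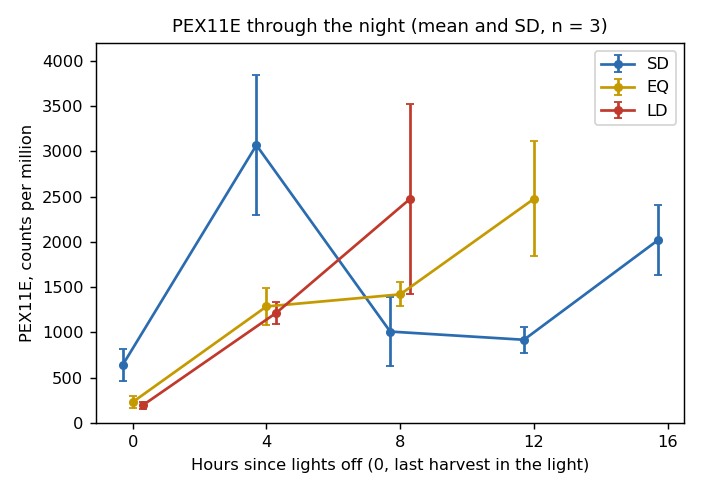
Mean level of PEX11E in CPM (bars, SD, n = 3) by hours since lights off in SD, EQ and LD, with 0 h the last harvest in the light and points shifted sideways to separate them. SD is highest at 4 h (3068 CPM), while EQ and LD are highest at the end of their nights (2475 and 2476 CPM).

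The daily expression integral (DEI) sums the level over 24 h, and its ratio between photoperiods (rDEI) is given on the log2 scale. The DEI of PEX11E corresponded to a mean of 1395 CPM over the day in SD, 1062 in EQ and 949.7 in LD. Its log2 rDEI was 0.56 for SD:LD (SE 0.19), 0.39 for SD:EQ (SE 0.14) and 0.16 for EQ:LD (SE 0.19). For PP2-A13 the values were 0.84 (SE 0.31), 0.32 (SE 0.17) and 0.51 (SE 0.30). The medians over 13965 genes with counts in each photoperiod were -0.04, -0.01 and -0.01. For SD:LD, 14.6% of these genes had a higher value than PEX11E and 8.45% a higher one than PP2-A13. In SD, ZT12 made up 36.6% of the PEX11E integral and 42.9% of that of PP2-A13, while in LD the largest share fell on ZT00, with 43.5% and 57.9%. Without replicate C the SD:LD value of PP2-A13 was 0.58, and without replicate B it was 1.09.

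The genes on either side had few counts. CYP76C7 (AT3G61040), a cytochrome P450 gene, had 0 counts in the 54 libraries. NTMC2T4 (AT3G61050), which lies upstream of PP2-A13 on the same strand, had a median of 16.5 counts and at most 48. Beyond PEX11E, AT3G61080 had a median of 22.5 counts and at most 67, and AT3G61090 a median of 8 and at most 22. These 4 genes had no library above 67 counts, below the lowest PEX11E library (497).

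The genes whose pattern was most like each member were found by Pearson's r over the 18 group means of log2(CPM + 0.5), among 4888 genes with a mean of at least 10 CPM. These points share libraries and scaling, and the values are a description. For PEX11E they were PSY1 (AT5G58650, r = 0.943), a secreted tyrosine-sulfated peptide, RAV2 (AT1G68840, r = 0.936), a repressor of flowering, RABA1g (AT3G15060, r = 0.934), a small GTPase of membrane traffic, SEN1 (AT4G35770, r = 0.928), known as a dark-induced gene, and the noncoding AT1G06573 (r = 0.928). Each of these 5 had its highest group mean in SD at ZT12. For PP2-A13 they were RAV2 (r = 0.905), the noncoding AT1G05023 (r = 0.895), DELTA-TIP (AT3G16240, r = 0.871), a water channel of the vacuole, the noncoding AT3G03265 (r = 0.859), and AT3G29680 (r = 0.855). Of these, RAV2 and AT1G05023 had their highest group mean in SD at ZT12, DELTA-TIP and AT3G03265 in LD at ZT00, and AT3G29680 in SD at ZT00. DELTA-TIP and AT3G03265 overlap each other on opposite strands. PSY1, RABA1g, AT1G06573 and AT1G05023 are also overlapped by an annotated gene, while RAV2, SEN1 and AT3G29680 are not. Between the members r was 0.872.

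Other genes of both families were tested in edgeR's quasi-likelihood fits over all genes. An adjusted p (FDR, Benjamini-Hochberg) under 0.05 was called, and the lists were chosen with earlier results of these data known. Of the 14 other PP2-A genes, 7 had a mean under 1 count and 7 passed the filter. The day-wide contrast is the difference between photoperiods averaged over the 6 time points. In SD against LD it called 2 of the 7, both lower in SD, beside 6.23% of genes called lower. They were PP2-A1 (log2 -0.40, SE 0.11, FDR = 0.00844), the phloem lectin gene, and PP2-A9 (log2 -0.35, SE 0.10, FDR = 0.0150). Both are overlapped on the opposite strand, and leaving out a replicate ended both calls. PP2-A1 was not called without replicate A or B (FDR up to 0.196), and PP2-A9 not without A, B or C (FDR up to 0.222). No gene of the 7 was called in SD against EQ or EQ against LD (4.99% and 1.35% of all genes were in either direction). The median over the 7 was -0.12, beside -0.06 over all genes. After dusk PP2-A9 fell in EQ (log2 -0.88, SE 0.25, FDR = 0.0233, background 2.93% lower), the direction opposite to that of PP2-A13. Without replicate B or C, or with no filter on low counts, this call was lost (FDR up to 0.422). PP2-A10, at 324 CPM per kb of exon the highest of the 14, was higher at ZT12 in SD than in LD (log2 0.73, SE 0.17, FDR = 0.0435, background 13% of genes called) and EQ (log2 0.81, SE 0.13, FDR = 0.0118, background 17.9%). It too is overlapped on the opposite strand, and both calls were lost with replicate A, B or C left out in turn (FDR up to 0.272 and 0.105).

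Peroxisome division genes stood far below PEX11E, whose mean level was 620.5 CPM per kb of exon. Mean levels were 5.77 for PEX11A, 1.20 for PEX11C and 1.70 CPM per kb for PEX11D, and 9 of the 10 genes on the list passed the filter. None of the 9 was called in a day-wide or after-dusk contrast by edgeR or by the Wald test of DESeq2, and none had an unadjusted p under 0.05 in edgeR. PEX11C, PEX11D, DRP5B, FIS1A and FIS1B each had a group at 0, and their day-wide SEs in edgeR ran from 338 to 33672. No change could have been called there, so their day-wide result is not read as an absence of change. After dusk, DRP5B and FIS1B in SD and FIS1A in LD had a log2 change and SE of 0, so nothing was compared. Of all genes, 12.9% were called in at least 1 day-wide and 13.1% in at least 1 after-dusk contrast. At single time points 1 was called, PEX11C, which had 11 to 21 counts in EQ at ZT16 and 0 in LD (FDR = 0.0406, background 14.2% of genes called). This call was lost with the replicate block, with no filter on low counts and with replicate A, B or C left out in turn (FDR up to 0.333).

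Of 17 genes of peroxisomal protein import and biogenesis, 9 had a mean under 1 count and 7 passed the filter. No gene was called in a day-wide contrast by either test (12.9% of all genes were in at least 1), and none had an unadjusted p under 0.05 in edgeR. PEX5, PEX19A and PEX19B each had a group at 0, and the day-wide edgeR contrasts could not have called a change for them. Their day-wide result is therefore not read as an absence of change. After dusk, PEX13, a docking protein of the import machinery, rose in SD, from 0 counts in the 3 ZT08 libraries to 20 to 45 at ZT12 (FDR = 0.00822, against 4.19% of genes called higher). PEX13 is overlapped on the opposite strand, and had 0 counts in 11 of the 54 libraries. With replicate A, B or C left out in turn, it was not called (FDR up to 0.114). In that contrast 5.54% of genes were called lower. At single time points PEX13 was the 1 gene called, higher at ZT16 in SD than in LD (log2 1.64, SE 0.33, FDR = 0.0282, background 13.7% of genes called). That call was lost with the replicate block, with no filter and with each replicate left out in turn (FDR up to 0.169). The median of the 7 after dusk in SD was 0.08, beside -0.02 over all genes.

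The study placed PP2-A13 in a cluster with KMD1, DIN6, HGO and EXL1, which was formed on these libraries, so their direction is not independent evidence. All 4 were called higher in SD than in LD over the day (5.78% of genes were), with log2 changes of 0.92 (KMD1, an F-box gene, FDR = 0.00347), 2.96 (DIN6, an asparagine synthetase, FDR = 0.00103), 0.70 (HGO, an enzyme of tyrosine breakdown, FDR = 6.66e-05) and 1.92 (EXL1, a cell wall protein, FDR = 0.0373). Without replicate C, KMD1 and DIN6 were not called over the day (FDR = 0.125 for KMD1 and 0.9999 for DIN6), though both kept their direction. EXL1 was not called with any of the 3 replicates left out or with no filter on low counts (FDR up to 0.264). HGO rose after dusk in each photoperiod, by log2 2.29 (SE 0.32) in SD, 2.06 (SE 0.31) in EQ and 1.54 (SE 0.31) in LD. The highest FDR of these was 0.000675, and the LD call was lost without replicate C (FDR = 0.107). The shares of all genes called higher were 4.19%, 3.09% and 3.65%. In SD against EQ over the day HGO was the only one of the 4 called, higher in SD (log2 0.61, SE 0.12, FDR = 0.00143, lost without replicate C). There 2.81% of genes were called higher in SD and 2.18% lower. In EQ against LD none of the 4 was called (0.517% of genes were called higher in EQ). DIN6, which was at 0 in EQ at ZT12, had an SE of 4254 in that contrast, so no change could have been called for it. KMD1 rose after dusk in EQ and LD, and DIN6 in EQ and SD, but each of these calls was lost without at least 1 replicate (highest FDR 0.176 and 0.156 for KMD1, 0.108 and 0.297 for DIN6). Like both members, HGO, DIN6 and EXL1 had their highest group mean in SD at ZT12, and KMD1 had its highest in SD at ZT00. HGO and DIN6 are overlapped by an annotated gene on the opposite strand, while KMD1 and EXL1 are not.

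The labelled tissue, whole seedling, was checked by marker genes. All 6 shoot markers and all 4 phloem markers had a mean of at least 1 count. Of the 5 root markers SHR did, while EXPA7, COBL9, PLT1 and NRT2.1 had means under 1 count. Of 20688 protein-coding genes not overlapped on the opposite strand, 56.2% also had a mean under 1 count. The summed shoot markers ranged from 714 to 3955 CPM (median 1294), beside a mean of 3068 CPM for PEX11E alone in SD at ZT12. The summed phloem markers ranged from 29.4 to 65.0 CPM in SD (median 42.2), 36.1 to 101 in EQ (median 53.6) and 34.9 to 90.5 in LD (median 50.5), and their part in the results was not tested. PP2-A1 is among these markers, with group means from 25.5 to 65.2 CPM, so the sums are not separate from the PP2-A1 result above.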

How the data were processed

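RNA of whole seedlings was sequenced in 54 libraries. The deposited table holds whole-number counts per gene, which the authors made by trimming reads with Trimmomatic 0.39, aligning them to TAIR10 with HISAT2 2.1.0 under a stranded setting, assigning them to annotated genes with StringTie 2.1.2 and writing the counts with prepDE (versions per the submitters' processing notes). prepDE derives counts from the coverage that StringTie assigns, so a split of reads between overlapping genes is already fixed in them. The counts are not normalized. The methods state a harvest on day 13, and the sample labels an age of 12 days. Groups follow the labelled photoperiod and zeitgeber time.

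The 92 spike-ins were left out. Levels are CPM after TMM over all 54 libraries with filterByExpr at a minimum count of 10 (14115 genes kept). The DEI used the trapezoid rule over 24 h with ZT00 repeated, and its SE came from the variance between replicates. Gene lists were tested with edgeR 4.0.16 (quasi-likelihood, Benjamini-Hochberg adjustment over all genes, R 4.3.3), in 18 fits of 6 libraries and 1 fit of all 54. Alternatives covered DESeq2 1.42.0, scaling, filters, a replicate block and each replicate left out. Python 3.11, numpy 2.4.6, pandas 2.3.3 and matplotlib 3.10.9 were used for the rest. The edgeR fits were tested on simulated counts with known changes. Coordinates and overlaps come from TAIR10.1, not the TAIR10 release the authors used. Named genes are the members, listed genes called at an FDR under 0.05 (at most 4 per list and contrast family, by smallest FDR, and any counted where 5 or fewer), the 5 genes most like each member and 2 neighbours on each side. The members and lists were chosen with earlier results of these data known. Replicates are separate pools of seedlings, and p-values measure the spread between them. No 2 libraries of a group agreed within counting error. The limits given for a count of 0 cover counting error only. The level of 1 listed gene is not reported here.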

Additional observations from a re-analysis of the deposited data

Results flagged for a closer look

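For both genes, each ZT12 library lay above each ZT08 library in SD and below each ZT08 library in EQ. For PEX11E each ZT12 library also lay below each ZT08 library in LD. In these comparisons the ranges of 24.4% (SD), 14.8% (EQ) and 16.9% (LD) of genes did not overlap in either direction. For PEX11E the log2 ratio of the ZT12 mean to the ZT08 mean came to 2.26 for SD, -1.37 for EQ and -1.90 for LD. For PP2-A13 it was 4.06 in SD (SE 1.46) and -2.69 in EQ (SE 1.47), while in LD 1 ZT08 library and each ZT12 library were at 0. Between ZT12 and ZT16, PEX11E changed by -1.61 in SD and 2.49 in EQ, and PP2-A13 by -1.62 in SD (SE 0.37) and 3.79 in EQ (SE 1.45). The PP2-A13 means at ZT08 in SD and at ZT12 in EQ each rest on 1 library, with the other two at 0. Without replicate B in SD or replicate C in EQ those means are 0 and the ratios that use them have no value. These differences between photoperiods were not tested. Lights went off at ZT08 in SD and at ZT12 in EQ, so the same interval spans dusk in one photoperiod and not in the other.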

How the results depend on the processing

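The log2 rDEI values of both genes, the median ratio of their counts and the number of comparisons without overlap (8 or 9 of 18 under the scalings tried) kept their direction and moved by less than the replicate spread, or under 1.5 times, under every alternative run for them, and without 1 replicate the SD:LD value ran from 0.44 to 0.77 for PEX11E and from 0.58 to 1.09 for PP2-A13. With the counts of both genes summed it was 0.61. The share of overlapping pairs with a steadier ratio moved from 4.59% to 9.24% when at least 200 counts were asked of both genes. Of the 45 listed genes, 27 passed the filter in the fit of all libraries. Of these, 6 were called in a day-wide contrast (12.9% of all genes were), and 2 to 3 without 1 replicate. After dusk 5 were called (13.1% of all genes), and 2 to 4 without 1 replicate. At single time points 7 listed genes were called (22.4% of all genes tested there), 4 with no filter on low counts, 2 without 1 replicate and 3 with the replicate block. Deviations from group means had a median correlation of 0.00201 between libraries with the same replicate letter and -0.00122 between those with different letters. None of 459 pairs with the same letter was above 0.1, and 23 of 54 libraries correlated best with their own letter. This cannot exclude a batch shared by a letter, as genes with few counts enter these correlations. With the replicate block 6 genes were called day-wide and 6 after dusk. The genes named as most like PP2-A13 depend on the log scale, with 0 of the 5 kept on CPM without a log and 4 with log2(CPM + 5). For PEX11E 3 and 4 were kept. The cause of these shifts was not tested. At the few counts of most listed peroxisome genes, at best large changes can be called. For PEX11C, PEX11D, DRP5B, FIS1A, FIS1B, PEX5, PEX19A and PEX19B the day-wide edgeR contrasts could not call a change of any size.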
